A study of Mus musculus with 8 samples.

Results

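The genes of the mitochondrial respiratory chain and ATP synthase were followed across the 2 cell lines and 2 vector labels of the series. They were chosen by name: all genes named mt-, Nduf, Uqcr, Cox4 to Cox8 or Atp5, and the 4 succinate dehydrogenase genes Sdha to Sdhd, without pseudogenes. This gave 107 of 22026 genes, of which 13 are encoded by mitochondrial DNA and 94 by nuclear DNA. Of the nuclear ones, 84 are subunits or isoforms, 8 are assembly factors of complex I (Ndufaf genes), 1 is the supercomplex factor Cox7a2l and 1 is Atp5s, a factor of the ATP synthase.

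The series holds 8 bulk RNA sequencing libraries from TS/A and 4T1, both mammary carcinoma lines of BALB/c mice. Cells were transduced with a virus vector that expresses Gpr56 (Adgrg1), an adhesion G protein-coupled receptor, or with an empty vector, grown with type III collagen in RPMI with 10% FCS, and taken for RNA after 72 h. The 4 groups, of 2 libraries each, were TS/A labelled with the Gpr56 vector, TS/A with the empty vector, 4T1 with the Gpr56 vector and 4T1 with the empty vector. The titles call the pair Emp_ColIII and Emp_Control, so which difference in vector or collagen each group carries is not settled by the labels, and the groups follow the stated vector. Whether the transduced cells were a pool or a clone, and whether the libraries came from separate cultures, is not given in the sources used here, so p-values measure the spread between these libraries, which may be technical.

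Depth was 10510569 to 25959142 reads per library. In 4T1, Adgrg1 had 1934 and 1068 reads with the Gpr56 vector, against 45 and 59 reads with the empty vector. The TS/A libraries of the Gpr56 label had 594 and 288 reads, against 849 and 303 reads with the empty vector, so its level did not part the labels. Epcam, Krt8, Cdh1 and Krt7, which mark epithelial cells, were all at or under 0.606 CPM (reads scaled to library size) in every TS/A library. Krt18 was at 157 to 202 CPM and Krt19 at 32.3 to 55.0 CPM there. Of 20 immune markers 10 had no read in any library, and so did Lum, Thy1 and Fap among 13 fibroblast markers. Others were present. Cd68 reached 17.6 CPM and Cd14 11.3 CPM, both in 4T1 with the Gpr56 vector. Col1a1 was at 131 to 328 CPM in TS/A, and Vim at 1508 to 3027 CPM over all libraries. Of 12 endothelial markers Emcn and Cldn5 had no read, and Eng was at 64.6 to 90.1 CPM in 4T1.

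The respiratory chain passes electrons from NADH or succinate to oxygen through complexes I to IV, and complex V, the ATP synthase, uses the resulting proton gradient to make ATP. Mitochondrial DNA encodes a small core of complexes I, III, IV and V, transcribed within the organelle as long precursors that are cut into mRNAs. All of complex II and the other subunits are made from nuclear genes, so the chain draws on 2 genomes. In bulk RNA, fewer mitochondrial transcripts per cell and fewer cells that carry them cannot be told apart.

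The mitochondrial genes lie close enough together for reads to be shared between neighbours, and the library kit does not mark strand. The 3 overlaps below are shown because they decide how far the members can be counted apart. Each is printed on the plus strand of GRCm38 with up to 20 bases on each side, and the shared bases are in capitals. The end of mt-Atp8 and the start of mt-Atp6, which stand on 1 mRNA, share 43 bases (chrM:7907-7989). Those of mt-Nd4l and mt-Nd4 share 7 bases (chrM:10147-10193). The 14 shared bases of mt-Nd5 and mt-Nd6 are read from opposite strands (chrM:13532-13585).
mt-Atp8/mt-Atp6: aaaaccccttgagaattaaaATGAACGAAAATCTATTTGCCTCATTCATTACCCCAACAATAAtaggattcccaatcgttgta
mt-Nd4l/mt-Nd4: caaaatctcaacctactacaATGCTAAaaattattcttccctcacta
mt-Nd5/mt-Nd6: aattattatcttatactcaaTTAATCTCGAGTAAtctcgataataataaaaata
For mt-Atp8, 43 of 204 bases are shared with mt-Atp6, so its reads are the least separable of the 13.

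Levels per length, in RPKM (reads scaled to transcript length and library size), were highest for mt-Co3, a core subunit of complex IV. It stood at 2150 ± 388 RPKM in TS/A and 1671 ± 427 RPKM in 4T1 (SD over 4 libraries of both vector labels). mt-Atp6, the ATP synthase subunit that forms the proton path, followed with 1197 ± 286 RPKM in TS/A and 1629 ± 325 RPKM in 4T1. These 2 genes did not differ beyond their spread in 4T1. Atp5b, the catalytic beta subunit of the ATP synthase, was the highest nuclear member with 1370 ± 169 RPKM in TS/A and 1127 ± 44.4 RPKM in 4T1. The highest nuclear member of complex IV was Cox4i1, with 672 ± 125 RPKM in TS/A and 559.9 ± 22.8 RPKM in 4T1.

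Among isoforms the ubiquitous forms carried nearly all of the signal. Cox6b2, Cox7b2, Cox8b and Cox8c, forms of testis or muscle, had no read in any library. Cox4i2, a form of lung, and Cox6a2, a form of heart and muscle, stayed at or under 0.383 RPKM in every library, where Cox6a1 had 278 ± 28.7 RPKM in TS/A and 253 ± 40.3 RPKM in 4T1. The proton-carrying c-ring subunit is encoded by Atp5g1, Atp5g2 and Atp5g3, and Atp5g3 was highest of these at 543 ± 67.7 RPKM in TS/A and 483 ± 56.8 RPKM in 4T1. In the tests of vector and line none of the 3 c-ring genes was called.

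Reads of the 13 mitochondrial genes were set against those of the 84 nuclear subunits in each library. The ratio was 0.303 and 0.298 in TS/A of the Gpr56 label, against 0.612 and 0.349 in TS/A with the empty vector. In 4T1 it was 0.482 and 0.412 with the Gpr56 vector, against 0.556 and 0.698 with the empty vector. Within each line both libraries of the Gpr56 label lay under both empty-vector libraries. The difference of mean log2 ratios was -0.62 in TS/A and -0.48 in 4T1. Its size rested on single empty-vector libraries: in TS/A it was -0.21 without empty library 1 and -1.03 without empty library 2, and in 4T1 it was -0.32 without empty library 2. With 2 libraries against 2, the smallest exact two-sided permutation p is 0.333, so no test of the ratio was made.

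The sums behind the ratio differed between the lines. The mitochondrial genes took 0.517% and 0.517% of reads in TS/A with the Gpr56 label, against 0.859% and 0.655% with the empty vector. They took 0.652% and 0.568% in 4T1 with the Gpr56 vector, against 0.755% and 0.965% with the empty vector. The nuclear genes took 1.38% to 1.42% of reads in all 4 libraries of 4T1. In TS/A they took 1.75% and 1.78% with the Gpr56 label, against 1.44% and 1.92% with the empty vector, where the empty-vector libraries lie on either side.

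**Figure D1:**
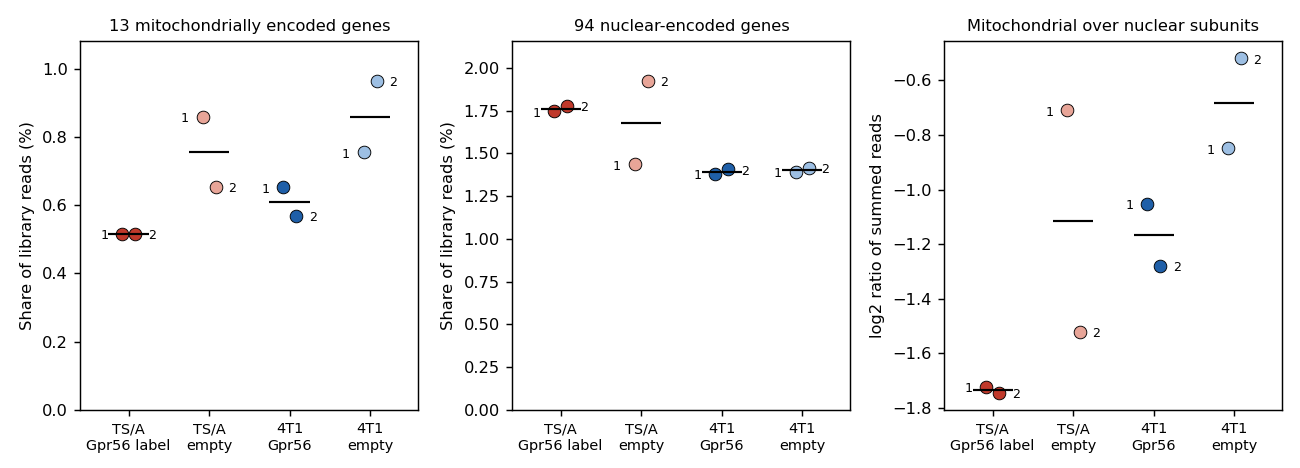
Share of library reads in the 13 mitochondrially encoded genes (left) and the 94 nuclear-encoded genes (middle), in percent, and the log2 ratio of mitochondrial reads to reads of the 84 nuclear subunits (right), by group. Points are libraries 1 and 2 and bars are means; the ratio is lower in both Gpr56-label libraries of each line, and TS/A empty library 2 lies far under library 1.

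With the Gpr56 vector, 4T1 had less of all 13 mitochondrially encoded mRNAs and a mixed response of the nuclear genes. In the fit of the 4 libraries of 4T1, all 13 of 13 fell (edgeR quasi-likelihood test, adjusted p 4.3e-05 to 0.0136), with a median log2 fold change of -0.53. The sizes rested in part on empty library 2, without which the median was -0.31 and the 13 values ran from -0.58 to -0.15. Between the 2 empty-vector libraries, 12 of 13 were higher in library 2, with a median log2 difference of 0.48, near the size of the vector effect. As the genes also shifted together between replicates, their calls are not 13 separate results. Of all genes tested, 22.8% were called in either direction, 11.3% fell and 11.5% rose. Of 85 tested nuclear members 6 rose and 21 fell, with a median of -0.09. For all 13 mitochondrial genes both Gpr56 libraries lay under both empty-vector libraries, which was so for 30.4% of all genes. In 4T1 the summed epithelial markers stood at 3067 and 2983 CPM with the Gpr56 vector, against 2172 and 2139.7 CPM with the empty vector. The summed fibroblast markers, nearly all from Vim, were at 1624 and 1520 CPM with the Gpr56 vector, against 2268 and 2338 CPM with the empty vector. The part of these shifts in the changes of the respiratory genes was not tested.

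All 3 complex IV subunits of mitochondrial DNA fell. mt-Co3 had 1197 and 978 CPM (scaled by TMM, here and below) with the Gpr56 vector, against 1590 and 1807 CPM with the empty vector. Its log2 fold change was -0.64 ± 0.08 (SE; edgeR adjusted p = 4.3e-05). The catalytic subunit mt-Co1 had 1200 and 1118 CPM with the Gpr56 vector, against 1370 and 1822 CPM with the empty vector. mt-Co2, which takes up electrons from cytochrome c, fell by 0.51 on the log2 scale. For both the groups do not overlap, and empty library 2 is the higher of its pair.

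In complex V, mt-Atp8 had 98.5 and 66.6 CPM with the Gpr56 vector, against 126 and 189 CPM with the empty vector. Its log2 fold change of -0.91 ± 0.16 (edgeR adjusted p = 0.00074) was the most negative of the 13. mt-Atp6, on the same mRNA, fell less, by 0.47 on the log2 scale with an SE of 0.08. No test of the difference between the 2 genes was made.

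The 7 complex I genes had log2 fold changes of -0.70 to -0.28. The lowest was mt-Nd2, at 274 and 208 CPM with the Gpr56 vector, against 334 and 456 CPM with the empty vector. The smallest change was that of mt-Nd3, at 225 and 253 CPM with the Gpr56 vector, against 294 and 287 CPM with the empty vector (log2 fold change -0.28 ± 0.06, edgeR adjusted p = 0.0037). mt-Nd4l and mt-Nd4, which share bases, fell alike, by 0.51 and 0.53. mt-Nd6, the one member read from the opposite strand, fell by 0.69, and mt-Cytb, the only mitochondrial gene of complex III, fell by 0.40.

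**Figure D2:**
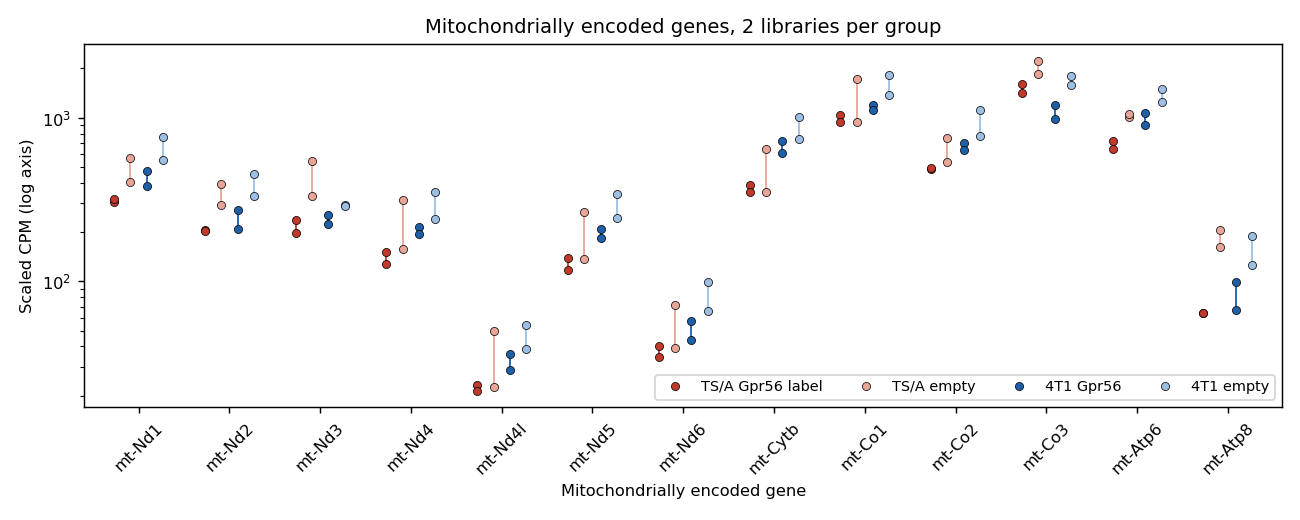
Level of each of the 13 mitochondrially encoded genes in scaled CPM on a log axis, by group. Points are the 2 libraries of a group, joined by a line; in 4T1 both Gpr56 libraries lie under both empty-vector libraries for every gene, while in TS/A the empty-vector libraries spread widely for mt-Nd4, mt-Nd5 and mt-Co1.

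Among the nuclear genes of 4T1, complex IV had the largest called share, with 3 of 12 tested members up and 4 down. This was 58.3%, against 22.8% of all genes, and the count includes the supercomplex factor Cox7a2l. Cox8a, a small structural subunit of the ubiquitous form, had 289 and 336 CPM with the Gpr56 vector, against 177 and 245 CPM with the empty vector. Its log2 fold change was 0.56 ± 0.11 (edgeR adjusted p = 0.00163), the largest rise among nuclear members. Cox5b rose by 0.31, with 120.1 and 127 CPM with the Gpr56 vector against 89.4 and 108 CPM with the empty vector, and Cox6a1 rose by 0.25. In the same complex Cox6c fell, with 178 and 155 CPM with the Gpr56 vector, against 247 and 234 CPM with the empty vector (log2 fold change -0.52 ± 0.07, edgeR adjusted p = 5.8e-05). Cox7a2l, which joins complexes III and IV into supercomplexes, fell by 0.53 ± 0.06 on the log2 scale. It stood at 107 and 108 CPM with the Gpr56 vector, against 155 and 155 CPM with the empty vector. Ndufa4, now counted as a complex IV subunit, fell by 0.38. Without empty library 1, Cox8a stood at 0.35, and Cox5b at 0.19 and Cox6a1 at 0.16 lost their calls. Cox6a1 also lost its call without Gpr56 library 2, at 0.11.

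Complex I had 11 called of 44 nuclear genes, 1 up and 10 down, a share of 25% near that of all genes. Ndufv2, which holds an iron-sulfur cluster of the NADH-oxidizing arm, was the only called core subunit of 7. It had 106 and 116 CPM with the Gpr56 vector, against 136 and 152 CPM with the empty vector (log2 fold change -0.38 ± 0.07). The accessory subunit Ndufa11 fell by 0.46. The assembly factors split: Ndufaf3 rose by 0.55 at 9.78 and 11.6 CPM with the Gpr56 vector, against 8.21 and 6.29 CPM with the empty vector, while Ndufaf6 fell by 0.57 and Ndufaf4 by 0.28. Ndufaf3 overlaps Impdh2 on the opposite strand, so reads from the shared stretch cannot be told apart, and the same holds for Ndufa11 with Vmac and, in complexes IV and V, for Cox6c with Vps13b and Atp5d with Cbarp. Without empty library 2 Ndufaf3 stood at 0.37 and Ndufaf6 at -0.50, and both lost their calls. Ndufaf2 also fell, by 0.29. It and Ndufaf4 each lost the call without either empty library.

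The called share was 25% in complex II, 37.5% in complex III and 29.4% in complex V, against 22.8% of all genes. These shares rest on 4, 8 and 17 tested genes. Sdhb, the iron-sulfur subunit of succinate dehydrogenase, fell by 0.28 and was the only one of 4 called. Uqcrq rose by 0.26, and Uqcrb and Uqcrh fell by 0.27 and 0.23, among 8 members of complex III. Uqcrq stood at 0.09 without Gpr56 library 2 and lost its call there and without empty library 1. Uqcrb, at -0.17 without Gpr56 library 2, lost its call there and without empty library 2, and Uqcrh lost its call without either empty library. Of 17 tested members of complex V, Atp5d rose by 0.22 and 4 fell. Of these Atp5s fell by 0.89 ± 0.30 at a low level, 2.39 and 1.5 CPM with the Gpr56 vector, against 3.6 and 3.95 CPM with the empty vector (edgeR adjusted p = 0.0417). Atp5s kept its call only without Gpr56 library 1, and Atp5d lost its call without either empty library. The other members that fell, Atp5f1, Atp5h and Atp5l, lost their calls without empty library 2, at -0.18, -0.20 and -0.18. Each also lost its call without another library.

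These calls depend on the test and on the spread assumed for 4T1. DESeq2 called 2 of 13 mitochondrial and 17 of 85 nuclear members, where it called 13.6% of all genes. With the spread shared over all 8 libraries, 0 mitochondrial and 0 nuclear members were called, in a fit that called 0.226% of all genes. Without empty library 1 the nuclear members called were 16 of 85, where 13.7% of all genes were called. Without empty library 2 they were 12 of 85, with 12.2% of all genes. Without empty library 2 the mitochondrial count was 9 of 13. The median of the mitochondrial log2 fold changes was -0.54 both with DESeq2 and in the fit of all 8 libraries.

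**Figure D3:**
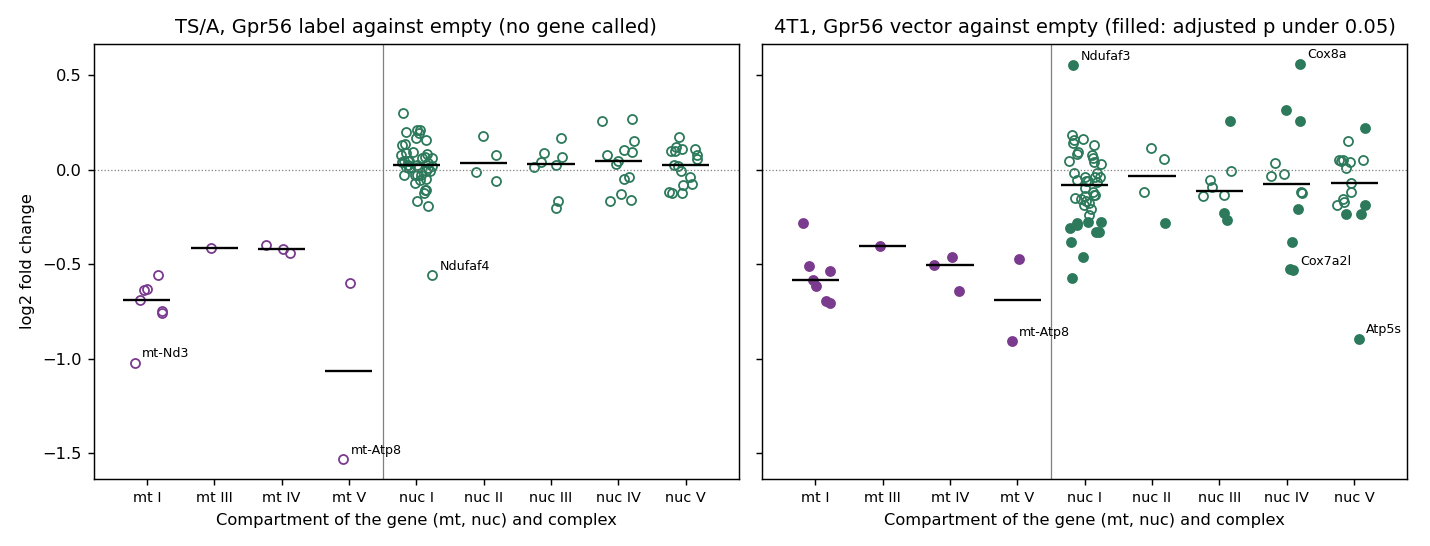
Log2 fold change of the Gpr56 label over the empty vector for each tested member by genome and complex, in TS/A (left) and in 4T1 (right). Filled points passed an adjusted p of 0.05 in the fit of that line, open points did not, and bars are medians; the mitochondrial genes (mt) all lie under 0 in both lines, and the nuclear genes (nuc) lie around 0.

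Genes that act on mitochondrial RNA were examined beside the 13. Of 31 genes for mitochondrial transcription, RNA handling and DNA maintenance, 1 rose and 5 fell in 4T1, with a median of -0.05, and the called share of 19.4% was under the 22.8% of all genes. Lrpprc, which stabilizes mitochondrial mRNAs, had 154 and 144 CPM with the Gpr56 vector, against 202 and 199 CPM with the empty vector (log2 fold change -0.43 ± 0.06, edgeR adjusted p = 9.6e-05). Fastkd5, needed for the processing of some mitochondrial transcripts, fell by 0.35. Polrmt, the mitochondrial RNA polymerase, rose by 0.30, with 31.8 and 34.3 CPM with the Gpr56 vector against 25.7 and 27.8 CPM with the empty vector. Of 8 tested regulators of mitochondrial biogenesis, Esrra rose by 0.35 and Yy1 by 0.17, and 0 fell, a share of 25%.

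Other mitochondrial lists were called in 4T1 at shares on both sides of the 22.8% of all genes. Of 37 assembly factors tested, 4 rose and 2 fell (16.2%), among them Bcs1l, which inserts the iron-sulfur protein of complex III, up by 0.53, and Uqcc2, down by 0.46. Of 13 genes of the citric acid cycle only Dld fell, by 0.25 (7.69%). Of 10 membrane channels and import proteins of mitochondria 2 fell (20%), Vdac3 by 0.30 and Tomm22 by 0.18. In the synthesis of ubiquinone and the cytochrome c carriers 2 of 11 rose and 3 fell (45.5%). Coq2 rose by 0.34, and Coq7 and Pdss2 fell by 0.44 and 0.40. Of 13 mitochondrial chaperones and proteases 2 rose and 3 fell (38.5%), among them the chaperone Trap1, up by 0.34, and the protease Lonp1, down by 0.27.

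In TS/A no gene was called in the vector comparison (edgeR, 0% of 11276 genes; 115 at an unadjusted p under 0.05). The spread between libraries was wider here, with a biological coefficient of variation of 19.6%, against 5.47% in 4T1, so a missing call does not show that a gene did not change. DESeq2 called 3 genes, of which 1 was a mitochondrial member. The 13 mitochondrial genes all had negative log2 fold changes, with a median of -0.63, and the 86 nuclear ones had a median of 0.03 (all genes, -0.02). At an unadjusted p under 0.05 there were 5 of 13 mitochondrial and 1 of 86 nuclear members. For 8 of 13 mitochondrial members both Gpr56-labelled libraries lay under both empty-vector libraries, against 10.4% of all genes. For the nuclear members the groups did not overlap in 5 of 86, against 21.6% of all genes.

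The lowest value was that of mt-Atp8, with 63.9 and 63.6 CPM in the 2 Gpr56-labelled libraries, against 161 and 205 CPM with the empty vector. The groups are well apart, and the log2 fold change was -1.53 ± 0.20 (edgeR adjusted p = 0.9999). Over the alternatives its adjusted p ran from 1.5e-06 to 0.99995, and it was the mitochondrial member that DESeq2 called (adjusted p = 7.2e-06, log2 fold change -1.53). mt-Atp6, its partner on the mRNA, had 648 and 716 CPM with the Gpr56 label, against 1013 and 1051 CPM with the empty vector, a log2 fold change of -0.60 ± 0.20. For mt-Nd3, a short complex I subunit, the values were 198 and 236 CPM with the Gpr56 label, against 333 and 541 CPM with the empty vector (log2 fold change -1.02 ± 0.29). The only nuclear member at an unadjusted p under 0.05 was the assembly factor Ndufaf4, with 22.0 and 22.6 CPM with the Gpr56 label, against 29.7 and 35.6 CPM with the empty vector (log2 fold change -0.56).

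The 2 empty-vector libraries of TS/A stood apart in these genes. In library 2, 84 of 86 nuclear members were higher than in library 1, by a median of 0.63 on the log2 scale, while the median over all genes was -0.04. The mitochondrial genes went the other way, with a median of -0.49 and 4 of 13 higher. Those 4 were mt-Nd3, mt-Atp8, mt-Co3 and mt-Atp6, which lie next to one another on mitochondrial DNA. mt-Nd4 had 316 CPM in library 1 and 157 CPM in library 2, and mt-Nd5 had 265 and 136 CPM. The Gpr56-labelled libraries differed little from each other, with a median of 0.04 over the nuclear members.

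The result in TS/A therefore turned on which empty library was used. Without empty library 2, 12 of 13 mitochondrial genes fell and 31 of 86 nuclear genes rose, where 9.88% of all genes were called. Without empty library 1, mt-Atp8 and mt-Nd3 fell and 0 nuclear genes were called, where 0.114% of all genes were called. The mitochondrial median was then -0.17 and the nuclear median -0.25, and mt-Co1 and mt-Cytb each stood at 0.08. In these fits the spread of the lone library is taken to be that of the other pair. mt-Atp8 stood at -1.32 without empty library 2 and at -1.69 without empty library 1. Its value was -1.52 without Gpr56-label library 1 and -1.53 without Gpr56-label library 2.

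**Figure D4:**
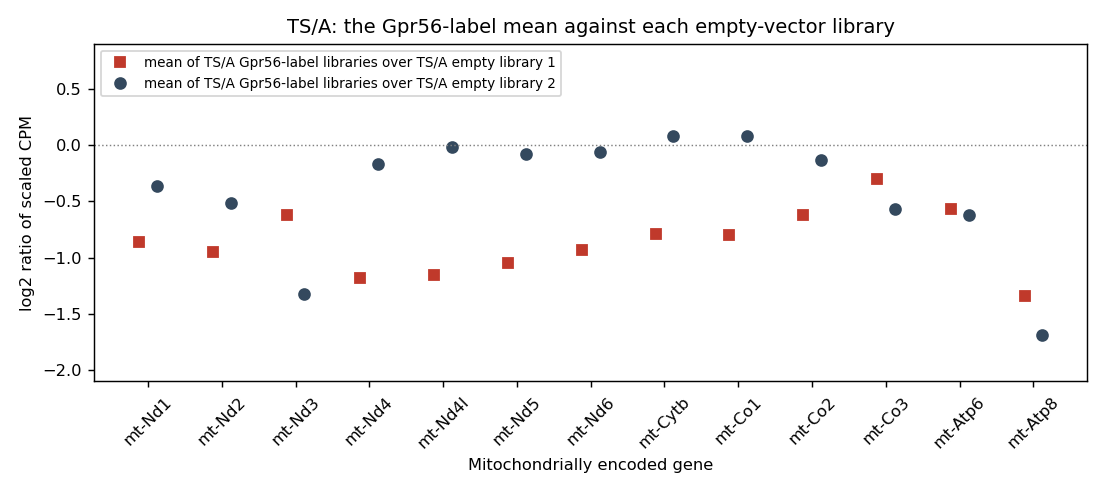
Log2 ratio of the mean of the 2 Gpr56-labelled TS/A libraries to each empty-vector library, for the 13 mitochondrially encoded genes (squares, over empty library 1; circles, over empty library 2). Against library 2, 8 of the genes lie at -0.37 or higher, while mt-Atp8 and mt-Nd3 lie at -1.69 and -1.32.

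The vector effects of the lines were compared directly. Of 13 mitochondrial and 86 nuclear members, 0 differed between the lines (edgeR interaction, 0.0668% of all genes called; 3 members at an unadjusted p under 0.05; DESeq2 also called 0 members). The 3 were mt-Nd3, at -0.73 (TS/A effect minus 4T1 effect), Cox7a2l at 0.81 and Atp5s at 1.02. Without TS/A empty library 1, 1 mitochondrial and 1 nuclear member were called (2.54% of all genes). Without TS/A empty library 2, 47 nuclear members were called, all with the more positive effect in TS/A (19.5% of all genes). The lines are therefore not shown to differ in their response.

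TS/A and 4T1 differed in the nuclear genes of the chain, mainly by higher levels in TS/A. Of 86 tested nuclear members 44 were higher and 7 lower in TS/A (edgeR, adjusted p under 0.05), with a median log2 fold change of 0.34, against 0.01 over all genes. Of all genes, 65.1% were called, 32.8% higher and 32.4% lower. Of the 13 mitochondrial genes 1 was higher and 5 were lower, with a median of -0.44. The groups did not overlap for 43 of 86 nuclear and 0 of 13 mitochondrial members, against 58.9% of all genes. In the empty-vector groups the higher nuclear level rested largely on TS/A library 2. Nuclear genes took 1.92% of reads there and 1.44% in TS/A empty library 1, against 1.38% to 1.42% in 4T1. Without TS/A empty library 2, Ndufb8 stood at 0.60 in place of 0.98. Likewise Atp5e stood at 0.29 in place of 0.63, and Ndufa4 at 0.19 in place of 0.43. Ndufb2 stayed at 1.38 or more with any single library left out. The summed epithelial markers were at 192 to 258 CPM in TS/A and 2139.7 to 3067 CPM in 4T1, and whether this bears on the respiratory genes was not tested.

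Complex I held the largest share of the nuclear complexes, with 26 of 44 members higher and 5 lower. The 70.5% called was near the 65.1% of all genes, and 59.1% were higher, against 32.8% of all genes. Several of these calls were lost without single libraries. Ndufb2, an accessory subunit of the membrane arm, had 84.4 and 90.6 CPM in TS/A with the Gpr56 label and 49.0 and 116 CPM with the empty vector, against 23.8, 27.6, 24.6 and 24.7 CPM in 4T1. All 4 TS/A libraries lie above all 4 of 4T1, and the log2 fold change was 1.75 ± 0.24 (edgeR adjusted p = 0.00032). Ndufb2 overlaps Braf on the opposite strand and Gm42420 on its own strand. Ndufa2 overlaps Tmco6 on the opposite strand, and Ndufb8 overlaps Gm20538 on its own. Reads of the shared stretches cannot be told apart. After Ndufb2 followed Ndufa2 (1.57), Ndufb4 (1.27), Ndufa7 (1.23) and Ndufb3 (1.10). Of 7 core subunits 4 were higher and Ndufs3, a core subunit chosen here after its value was seen, was lower (-0.20).

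In the other complexes, the members that averaged 10 CPM or more in TS/A rose less than the highest of complex I. Atp5h, subunit d of the ATP synthase stalk, had 328 and 344 CPM with the Gpr56 label and 228 and 396 CPM with the empty vector in TS/A, against 151, 134, 164 and 172 CPM in 4T1. Its log2 fold change was 1.07 ± 0.16 (edgeR adjusted p = 0.000551). Sdhc, a membrane anchor of complex II, was higher by 0.92 and Cox7b by 0.81, or by 0.50 without TS/A empty library 2. Atp5s rose more, by 1.66 ± 0.19, at a low level of 7.75 to 10.3 CPM in TS/A, against 1.5 to 3.95 CPM in 4T1. Cox7a1, the heart and muscle form of subunit VIIa, was seen at 1.31 to 3.23 CPM in TS/A and at 0.225 CPM or less in 4T1. As 3 reads equal 0.116 to 0.285 CPM, its 4T1 level is near the floor of detection and no fold is given.

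The called mitochondrial genes were a mixture. mt-Cytb was lowest in TS/A relative to 4T1, with 389 and 352 CPM (Gpr56 label) and 641 and 349 CPM (empty) in TS/A, against 719.5, 604, 737 and 1015 CPM in 4T1. The groups overlap, and its log2 fold change was -0.83 ± 0.19 (edgeR adjusted p = 0.00564). mt-Nd5, mt-Co2, mt-Atp6 and mt-Nd1 were called lower, with log2 fold changes of -0.58, -0.49, -0.47 and -0.44. mt-Co3 was higher, at 0.37. The count of 6 called became 12 without TS/A empty library 1, and 3 without 4T1 empty library 2, 4T1 Gpr56 library 1 or TS/A Gpr56 library 1. Without TS/A Gpr56 library 2 it was 2.

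Cox6c and Ndufb9 were the nuclear members with the lowest relative levels in TS/A, and both lie on chromosome 15. Ndufb9, an accessory subunit of complex I (chr15:58933756-58939488, plus strand), had 122 and 136 CPM with the Gpr56 label and 78.3 and 169.8 CPM with the empty vector in TS/A, against 349, 337, 417 and 425 CPM in 4T1. Its log2 fold change was -1.59 ± 0.21 (edgeR adjusted p = 0.000272). Cox6c, a small subunit of complex IV (chr15:35925886-35938246, minus strand), stood at -1.12 ± 0.15. Ndufb9 shares bases with the gene model Gm49356 on its own strand. The neighbours of both showed the same direction. Within 1 Mb of Ndufb9 the 18 other tested genes had a median log2 fold change of -1.56, with 16 called lower and 2 higher. Within 1 Mb of Cox6c the median of 8 genes was -1.03, with 7 lower and 0 higher. Over 473 tested genes of chromosome 15 the median was -0.10, with 196 called lower and 152 higher. Of all genes, 32.4% were lower and 32.8% higher. All windows given here were chosen after values were seen. Within 1 Mb of Ndufb2, on chromosome 6, the median of 13 genes was 0.30, with 5 higher and 2 lower. Around Ndufa7, on chromosome 17, the median of 52 genes was 0.44, with 28 higher and 6 lower. Around Ndufb4, on chromosome 16, the median of 15 genes was 0.26, with 6 higher and 5 lower.

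**Figure D5:**
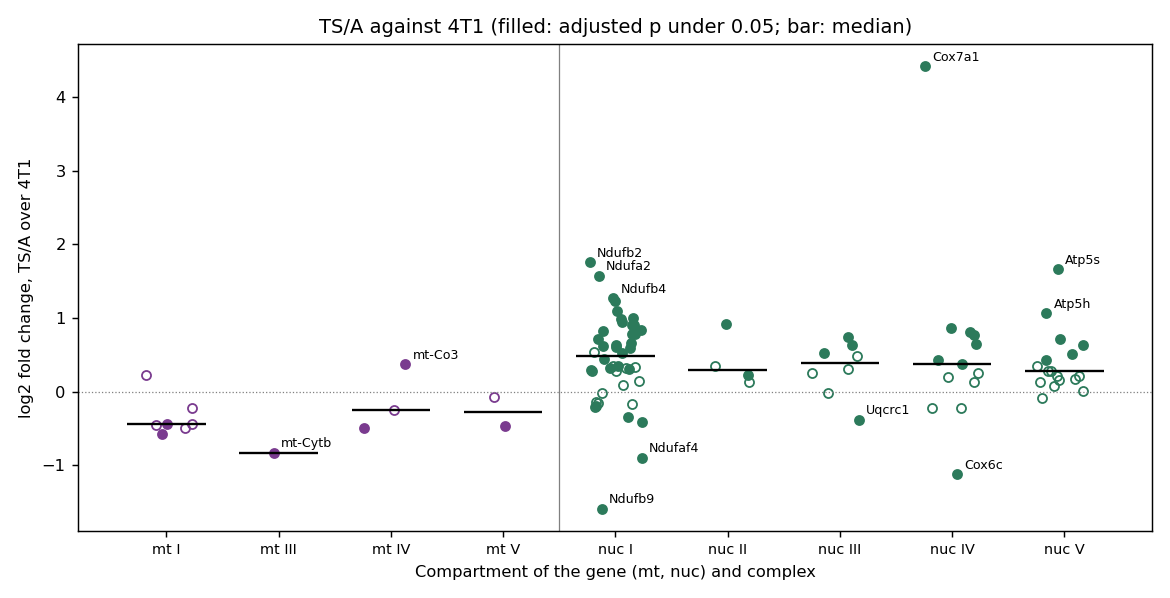
Log2 fold change of TS/A over 4T1, averaged over vector labels, for each tested member by genome and complex. Filled points passed an adjusted p of 0.05, open points did not, and bars are medians; the nuclear complexes have medians of 0.27 to 0.49 on this scale, and Ndufb9, Cox6c and Ndufaf4 lie lowest.

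Ndufaf4, an assembly factor of complex I, was also lower in TS/A (log2 fold change -0.90 ± 0.09, edgeR adjusted p = 7.1e-05), while 5 of the other assembly factors were higher. The calls of those 5 were each lost without some single libraries. Without TS/A empty library 2, Ndufaf2 stood at 0.31 in place of 0.62 and Ndufaf5 at 0.30 in place of 0.61. Uqcrc1, a core protein of complex III, was lower by 0.38 on the log2 scale, Ndufa8 by 0.41 and Ndufab1, the acyl carrier protein, by 0.34. The calls of Ndufa8 and Ndufab1 were each lost without single libraries of 4T1, and that of Ndufs3 without any single 4T1 library or either Gpr56-label library of TS/A. Ndufs3 also shares bases with Kbtbd4 on the opposite strand, as Uqcrb does with Gm10767. For Ndufaf4 the values were 22.0 and 22.6 CPM with the Gpr56 label and 29.7 and 35.6 CPM with the empty vector in TS/A, against 47.8, 43.2, 55.4 and 55.7 CPM in 4T1. All 4 TS/A libraries lie under all 4 of 4T1.

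Promoters of 74 nuclear members were matched by symbol in the RefSeq table (GRCm38.p6; 250 bases before to 50 after the start). Many nuclear respiratory genes are known targets of GABP, a factor of the ETS family, so the ETS core was searched on both strands. Its letters, CCGGAAG or CTTCCGG on the other strand, were in 18 of 74 member promoters (24.3%) and in 9.93% of 27025 gene promoters. A match is a description of the letters and not a bound site. The promoters of Cox8a, the largest called nuclear rise in 4T1, and of Atp5h, the highest of the ATP synthase subunits called in the line comparison apart from Atp5s, are shown as examples. The ETS core is in capitals and each runs 5′ to 3′ along its gene. Cox8a is at chr19:7217567-7217866 and Atp5h at chr11:115419870-115420169, both on the minus strand.
Cox8a: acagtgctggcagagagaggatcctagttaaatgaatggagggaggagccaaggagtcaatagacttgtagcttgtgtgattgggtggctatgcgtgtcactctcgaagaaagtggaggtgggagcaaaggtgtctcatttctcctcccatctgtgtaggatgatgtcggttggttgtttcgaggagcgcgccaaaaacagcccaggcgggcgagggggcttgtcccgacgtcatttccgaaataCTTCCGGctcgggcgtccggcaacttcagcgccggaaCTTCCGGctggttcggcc
Atp5h: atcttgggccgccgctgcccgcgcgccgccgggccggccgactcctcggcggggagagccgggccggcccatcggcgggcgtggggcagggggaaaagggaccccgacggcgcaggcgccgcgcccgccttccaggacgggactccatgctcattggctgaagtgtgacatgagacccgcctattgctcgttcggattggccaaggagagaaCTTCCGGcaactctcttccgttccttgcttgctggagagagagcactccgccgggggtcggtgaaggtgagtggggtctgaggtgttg
Cox8a holds 2 ETS cores and Atp5h, which fell by 0.24 in 4T1, holds 1. Cox6a1, which rose in 4T1, also holds the core, as do Sdhb, Uqcrh and Atp5l, which fell there. The core was not found for Ndufb2, Ndufb4, Ndufa7 and Ndufb3, which were among the largest rises between the lines. Nor was it found for Cox5b, Atp5d, Cox7a2l, Ndufa11, Ndufa4 and Ndufv2, called in 4T1. Whether the core goes with the changes was not tested.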

How the data were processed

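The authors deposited a whole-number read count and an RPKM value per transcript for each library, per the file headers. Per the labels' protocols, an RNeasy kit and the TruSeq RNA kit v2 were used. Aligner, counter and build were not given in the sources used here. Deposited counts of 65042 transcripts were summed to 22026 genes by name, 15815 with any read, and coordinates are those of GENCODE release M21 (GRCm38). The deposited RPKM values were summed per gene to compare levels between genes, and entered no test.

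Counts were tested with edgeR 4.0.16 in R 4.3.3 (filterByExpr, TMM, glmQLFit, glmQLFTest, Benjamini-Hochberg over all genes tested, threshold 0.05). Each line was fitted alone for the vector effect, because the biological coefficient of variation was 5.47% in 4T1 and 19.6% in TS/A. The line effect and the difference between vector effects used all 8 libraries (14.7%). Each standard error (SE) is the log2 fold change over the root of F. The procedure was tested on simulated data.

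The members and lists were chosen with earlier results of these data known. Named were the 13 mitochondrial genes, the isoform sets, the most abundant member per complex, up to 6 called nuclear members each way per comparison with at least 10 CPM and groups that do not overlap, and up to 2 called genes each way of each other list. Ndufaf3 in 4T1 entered by this rule. Atp5s, Cox7a1, Ndufs3, Ndufaf4, Sdhb, Sdhc, Uqcrb, Uqcrh, Cox7b, Ndufb8 and Atp5e were chosen after their values were seen, in comparisons where the rule does not take them. The same holds for Ndufaf2, Ndufaf5, Atp5f1, Atp5l, the 4T1 values of Atp5h, the line values of Ndufa4 and the windows of neighbouring genes. Alternatives were DESeq2 1.42.0, limma-voom (limma 3.58.1), DESeq2 size factors, library totals, other filters, a replicate block, leaving out each library and, for the vector effects, 1 fit of all 8 libraries.

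The replicate numbers were checked as pairs over 11970 genes. The deviations of same-numbered libraries correlated at -0.0399 in 4T1 and 0.413 in TS/A. Across the lines they correlated at 0.0854 for the empty-vector libraries and -0.121 for the Gpr56-label libraries.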

Additional observations from a re-analysis of the deposited data

How the results depend on the processing

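For the count of called members the alternatives gave the following. In 4T1 DESeq2 called 2 mitochondrial and 17 nuclear members, the fit of all 8 libraries called 0 and 0, and leaving out single libraries gave 9 to 13 and 12 to 33. In TS/A DESeq2 and no filter each called 1 mitochondrial member, and leaving out single libraries gave 0 to 12 mitochondrial and 0 to 31 nuclear. Between the lines the Gpr56-label groups alone and the empty-vector groups alone each called 3 mitochondrial members, the empty-vector groups called 30 nuclear members, and leaving out single libraries gave 2 to 12 mitochondrial members. For the difference between vector effects, leaving out single libraries gave 0 to 1 mitochondrial and 0 to 47 nuclear members, and DESeq2 on all libraries called 0 of both. With median RPKM in place of summed reads the log2 ratio of TS/A minus 4T1 was -1.0031, against -0.50.

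Some directions turned. The mt-Atp8 line effect was 0.22 in the empty-vector groups and, with single libraries left out, -0.21 to 0.082 (above 0 when Gpr56 library 1 or empty library 2 of 4T1 was missing), and mt-Nd3 was -0.14 in the Gpr56-label groups. In TS/A mt-Co1 ran from -0.78 to 0.078 and mt-Cytb from -0.77 to 0.080 with single libraries left out, above 0 without empty library 1. The cause was not tested. Of the other values of single genes under the alternatives, 749 kept direction and call, 91 lost the call and 34 gained one. The sources used here do not say whether libraries of the same number are pairs, and the main fits treat them as unpaired. In TS/A the replicate block lowered the biological coefficient of variation from 19.6% to 15.3%. Of all 11276 genes tested there, 20 rose and 6 fell with the block. With the replicate block 13 mitochondrial and 30 nuclear members were called in 4T1, 2 (mt-Atp8 and mt-Nd3) and 0 in TS/A. A ratio that includes mitochondrial tRNA and rRNA genes could not be run, since they are not used here. Depth limits genes near 3 reads, such as Cox7a1 in 4T1.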

Other observations

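Genes of mitochondrial gene expression and of the citric acid cycle were called between the lines at shares near the 65.1% of all genes. Of 31 genes of mitochondrial gene expression 14 were higher and 7 lower in TS/A than in 4T1 (67.7%; edgeR, adjusted p under 0.05). Mterf2 and Mterf1a, at low levels of at most 10.9 CPM, were higher by 1.77 and 1.47 on the log2 scale. Twnk, the helicase of mitochondrial DNA replication, and Polg, the polymerase, were lower by 1.13 and 1.02. Of 8 tested regulators of mitochondrial biogenesis 2 were higher and 2 lower (50%). Among them Pprc1, a coactivator related to PGC-1, was lower by 1.15. Of 13 mitochondrial chaperones and proteases 5 were higher and 1 lower (46.2%). Hspa9, the chaperone that pulls proteins into the matrix, was higher by 0.80. Of 10 membrane channels and import proteins 3 were higher and 6 lower (90%). Of 13 genes of the citric acid cycle 4 were higher and 4 lower (61.5%). Suclg2 was higher by 0.88, and Cs, citrate synthase, was lower, with 316 and 328 CPM in TS/A with the Gpr56 label and 339 and 306 CPM with the empty vector, against 554, 589, 529.97 and 512 CPM in 4T1.

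Within the mitochondrial reads the mix of genes also differed between the lines. mt-Co3 took 27.7% and 30.7% of them in TS/A with the Gpr56 label and 22.8% and 32.4% with the empty vector, against 18.5%, 17.5%, 20.9% and 18.4% in 4T1. mt-Cytb took 7.62% and 6.73% with the label and 7.87% and 5.06% with the empty vector, against 11.1%, 10.8%, 9.70% and 10.4% in 4T1.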
